A study of Sus scrofa with 6 samples.

Results

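Fragments captured by MeDIP-seq were counted in 1 kb windows of chromosomes 1 to 18 in longissimus dorsi muscle of 6 Jinhua pigs, and the 1620 windows that were well covered in at least 1 library and empty in at least 1 other are described here. Well covered means 20 or more fragments in a window after scaling each library to the mean total number of fragments, and empty means 1 or less. These 1620 windows, called members below, were 0.220% of the 734827 windows that reached 20 in any library, and 0.0854% of the 1897746 windows that held a fragment in any library. The counts in all 6 libraries chose the members, so their pattern over the libraries is a description and was not tested.

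The samples were 3 MA pigs aged 7 years and 3 young pigs aged 0.5 years, with 1 library per pig. All 6 were females with shared housing and feed, and no treatment or genetic modification separated the groups. The DNA came from whole muscle, so fewer cells carrying methylated DNA and less methylation per cell cannot be told apart. The libraries held 34801285 to 44341673 fragments.

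In vertebrate genomes methylation sits mainly on cytosines that are followed by guanine, and most such sites outside CpG islands are methylated in somatic tissue. In MeDIP an antibody against methylated cytosine pulls down sheared DNA, so a window gathers fragments where its DNA is methylated and holds enough CpG sites. A window can lack fragments because its CpG sites are unmethylated. It can also lack them because that animal does not carry the DNA, as in a deletion, or carries a sequence too different from the reference for its reads to be aligned. No unenriched input DNA was analysed here, so for any window these possibilities cannot be told apart from the counts.

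Because of the scaling, 1 fragment was worth 0.893 in MA 1 and 0.912 in Young 1, and 1.02 to 1.14 in the other 4 libraries. MA 1 and Young 1 could therefore hold 0 or 1 fragment in an empty window, whereas the other libraries had to hold 0. Of the 535 members empty in MA 1, 279 held no fragment and 256 held 1 fragment, and of the 551 empty in Young 1, 290 held none and 261 held 1. The libraries also differed in other ways. The mean count in the outer 5 Mb of the chromosomes, against that in the rest, was 1.97 times in MA 3, 2.08 times in Young 1 and 2.34 to 2.44 times in the other 4. Young 2 and Young 3 were the most alike of the 15 pairs of libraries, with a mean chi-square per window of 1.17, where sampling alone gives a value near 1 and the other pairs gave 1.59 to 3.27. They also shared the most intervals with identical start and end, 433 for each product of 1e+06 by 1e+06 fragments against 338 to 401 in the other pairs. They differed slightly beyond sampling noise and were kept as 2 animals, as labelled. Why they were so alike was not tested, and where they are not independent animals, the young group holds fewer than 3 and the spread in the comparison by age is too small.

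Most members were empty in few libraries. A total of 1163 members (71.8%) were empty in 1 library, 251 in 2, 125 in 3, 65 in 4 and 16 in 5. At the other end, 755 members (46.6%) reached 20 in 1 library only, 357 in 2, 248 in 3, 169 in 4 and 91 in 5. The count in the highest library ranged from 20.1 to 187, with a median of 28.3 and a 90th percentile of 54.6. The members just inside it had 20.07 in their highest library, and the windows just outside it had 19.82. Just outside the lower threshold, the lowest library stood at 1.02. A further 9459 windows had an empty library and a highest library between 10 and 20.

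A clean division of the libraries into covered and empty was the exception. Every library was either empty or at 20 or more in 168 members (10.4%), and the other 1452 had at least 1 library in between. Relative to the highest library of the window, 33.5% of the values of libraries that were not empty lay under 0.3, 40.7% lay from 0.3 to 0.7, and 25.7% lay above 0.7. In windows at 20 or more that were no members, these shares were 2.00%, 38.7% and 59.3%. The 1620 members fell into 293 patterns of empty, intermediate and covered libraries. The commonest, with 58 members in 58 separate places, was empty in MA 3, intermediate in Young 1 and covered in the other 4 libraries. The next, with 44 members in 35 places, was empty in MA 1 and covered in the other 5.

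**Figure D1:**
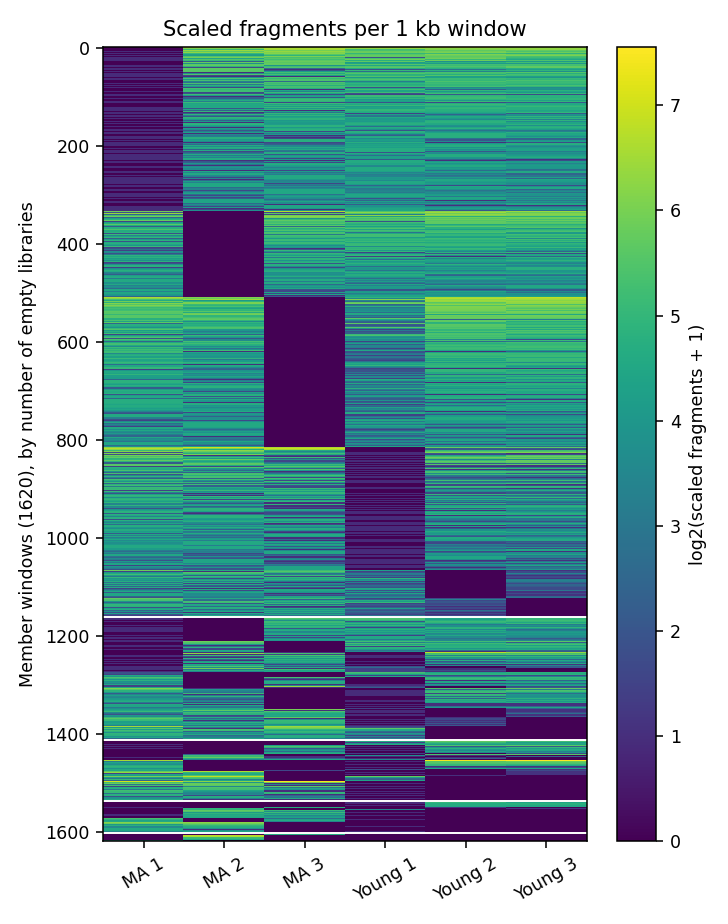
Scaled fragments per 1 kb window in the 6 libraries (columns) for the 1620 members (rows), on a log2 scale after adding 1, sorted by the number of empty libraries, with white lines between the groups that are empty in 1, 2, 3, 4 and 5 libraries. The upper block holds the 1163 members empty in 1 library, in which MA 1 has the most rows and Young 3 the fewest, and Young 1 is dim in many rows where MA 3 is empty. In MA 1 and Young 1, rows with 1 fragment count as empty.

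The libraries contributed unequally. The number of empty members was 535 in MA 1, 336 in MA 2 and 488 in MA 3, against 551 in Young 1, 246 in Young 2 and 224 in Young 3. MA 1 and Young 1 counted as empty with 1 fragment, which the other libraries could not. Members with 0 fragments numbered 279 in MA 1 and 290 in Young 1, and MA 3 then had the most, with 488. MA 1 was the only empty library in 335 members, MA 2 in 176, MA 3 in 306, Young 1 in 251, Young 2 in 57 and Young 3 in 38. The numbers of MA 1 and Young 1 here include windows with 1 fragment. Young 2 and Young 3, with the lowest numbers, mostly shared their state. They were empty together in 147 members and at 20 or more together in 485. One of them was empty and the other at 20 or more in 0 of 1620 members.

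The other 14 pairs of libraries took opposite states in 155 to 477 members, that is 9.57% to 29.4%. The fewest were between Young 1 and Young 3 with 155 and Young 1 and Young 2 with 164, and the most were between MA 1 and MA 3 with 477 and MA 1 and Young 1 with 464. Libraries of the same age were therefore on both ends of this order. In 979 members (60.4%), at least 1 age group held both an empty and a covered library, so that animals of the same age contrasted there. Both age groups did so in 33 of them. The ages can differ in these members as well. Without Young 2 the rule gave 1476 members, and without Young 3 it gave 1518.

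**Figure D2:**
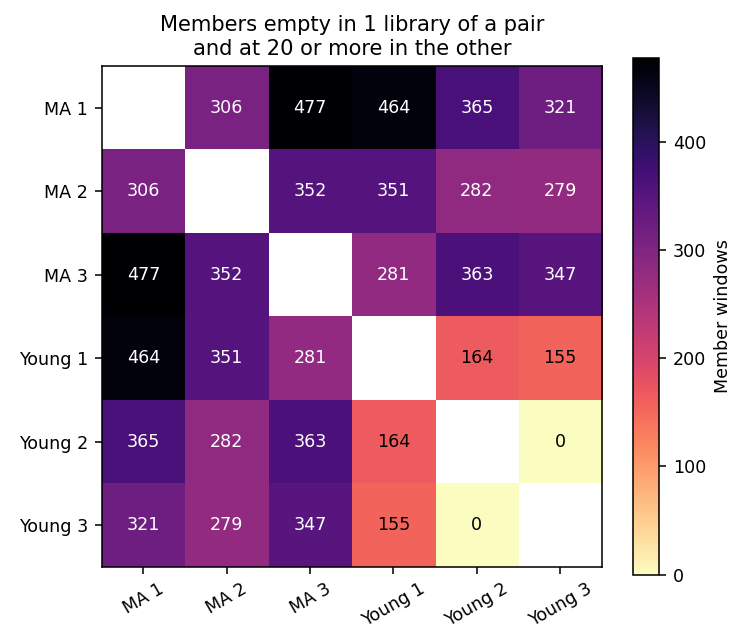
Number of the 1620 members in which 1 library of a pair is empty and the other holds 20 or more scaled fragments, with darker squares for more members. Young 2 and Young 3 have 0 such members, the other pairs have 155 to 477, and the 3 pairs of MA pigs lie between 306 and 477.

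The members were also looked at in a library that had no part in choosing them. Each library was left out in turn, members were chosen on the other 5, and the left-out library was read in those windows. It was empty in 12.3% to 23.3% of them, between the thresholds in 46.4% to 56.4%, and at 20 or more in 25.7% to 38.3%. Over all windows at 20 or more in one of those 5 libraries, the left-out library was empty in 0.0309% to 0.0769%. Young 1 was the library most often empty when left out (23.3% of 1289 windows) and Young 3 the least often (12.3% of 1518 windows). MA 1 and Young 1 counted as empty with 1 fragment, which the other libraries could not, so this order is not on equal terms. Among the libraries that had to hold no fragment, MA 3 was most often empty (16.1% of 1130 windows) and Young 3 least often. In windows that varied among 5 pigs, the sixth often had low or intermediate counts. All windows at 20 or more were more deeply covered, with a median of 41.9 in the highest library against 28.3 at members. They are thus not a matched comparison. Young 2 and Young 3 were also nearly alike, so neither was new to windows chosen with the other.

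Members were spread over all 18 autosomes, at 0.312 per Mb on chromosome 15 to 1.53 per Mb on chromosome 12. Relative to 1000 windows at 20 or more, the mean was 2.20 and chromosome 5 had the most with 4.09. The outer 5 Mb of the chromosomes held 25.2% of the members, 13.3% of the windows at 20 or more and 8.42% of all windows. Without the outer 5 Mb, a choice made after seeing the data, 1212 members remained.

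Most members stood alone. Adjacent members joined into 1445 runs, of which 1323 were 1 window long, 93 were 2 windows, 15 were 3, 8 were 4, 4 were 5 and 2 were 7 windows long. Runs of 2 or more windows held 297 members (18.3%). Neighbouring members tended to be empty in the same library. At least 1 empty library was shared by 93.7% of the 175 pairs of adjacent members, by 87.0% of neighbours 2 to 10 kb apart, 63.0% at 10 to 100 kb, 43.5% at 100 kb to 1 Mb and 37.9% beyond 1 Mb. A library that was empty in one member and at 20 or more in the next occurred in 2.29%, 8.21%, 29.4%, 43.5% and 49.9% of the same pairs. Adjacent windows are not independent of each other.

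The locus with most members lay on chromosome 5 and was empty in MA 1. In chr5:98348001-98377000, MA 1 held 3 fragments over 29 kb, while MA 2, MA 3, Young 1, Young 2 and Young 3 held means of 33.5, 34.7, 30.5, 31.7 and 29.4 scaled fragments per kb. The 21 members in this block were all empty in MA 1, and the other 5 libraries stood close together. A second block of 13 kb, chr5:98333001-98346000, ended close by and held 6 members, and there MA 1 had 0.14 fragments per kb and the others had 16.5 to 21.8. In the windows between the blocks, MA 1 stayed low, with 0 and 1.79 against 3.09 to 9.12 and 23.7 to 35.6 in the others. The blocks are thus separated only because 1.79 exceeded the lower threshold of 1. The longest runs of the first block were chr5:98354001-98359000, with 0.179 per kb in MA 1 against 26.5 to 33.4 in the others, and chr5:98366001-98370000, with 0.223 against 50.9 to 59.6. In the second block, chr5:98339001-98343000 held 0.223 against 36.7 to 46.5. In the first block, the longest stretch without any fragment of MA 1, chr5:98354860-98366798, was 11939 bp long and held 349 to 411 scaled fragments in each of the other 5 libraries.

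MA 3 had the longest block without a single fragment among the loci described below. In chr2:129946001-129967000 it held 0 fragments over 21 kb, whereas the other libraries held 220 to 334 fragments, before scaling, and 7 members lay in the block. Beside it, in chr2:129922001-129933000, MA 3 held 3 fragments and the others held 143 to 226.

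A block with sharp sides was empty in Young 1 alone. In chr3:4765001-4772000, 7 adjacent members held 0 fragments of Young 1, which allows up to 2.74 scaled fragments (3 fragments, counting error only) over the 7 kb. The other libraries summed to 327 in MA 1, 328 in MA 2, 263 in MA 3, 252 in Young 2 and 242 in Young 3. The stretch without any fragment of Young 1 ran from 4764806 to 4771978 and was 7173 bp long. In the first window on each side, Young 1 held 38.3 and 52.0, and the others held 39.8 to 61.9 and 41.1 to 60.4.

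Other runs were empty in several pigs that did not share an age. In chr18:50586001-50590000, MA 1 and Young 1 held 0 fragments over 4 windows, MA 2 held 59.3 per kb, and MA 3, Young 2 and Young 3 held 31.2, 25.6 and 27.9. The stretches without fragments in MA 1 and Young 1 were 5266 and 5332 bp long, and their ends differed by 68 bp on the left and 2 bp on the right. The 3 intermediate libraries thus lay near the middle between the empty libraries and the highest one. In chr9:8092001-8096000, MA 2 held 46.9 per kb, MA 1 and Young 1 held 15.4 and 19.4, MA 3 held 0.256, and Young 2 and Young 3 held 0.

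Levels between empty and highest recurred on other chromosomes. In chr5:87287001-87291000, MA 2 was empty, MA 1 and MA 3 held 35.7 and 37.9 per kb, and Young 1, Young 2 and Young 3 held 15.3, 16.2 and 19.3. In chr6:65250001-65273000, MA 1 held 0.19 per kb, MA 2 held 8.07, and the other 4 libraries held 14.2 to 15.7. In chr4:11649001-11654000, MA 1 and MA 2 held 0.54 and 0, MA 3 and Young 1 held 18.6 and 22.1, and Young 2 and Young 3 held 34.2 and 31.6.

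Some runs were covered in 1 or 2 pigs only. In chr4:135169001-135174000, MA 2 held 74.9 per kb over 5 windows and each of the other libraries held 0 to 0.683. In chr1:2641001-2646000, Young 2 and Young 3 held 36.7 and 35.3 per kb, and the other 4 held 0 to 0.730. The stretches without fragments there in MA 1, MA 2 and MA 3 were 8271, 8885 and 8736 bp long. Their ends lay 3 bp apart on the left and 152 bp on the right between MA 2 and MA 3, and 264 to 267 bp on the left and 729 to 881 bp on the right between MA 1 and these libraries. At the run on chromosome 4, the ends of MA 1 and MA 3 differed by 1550 and 2440 bp, so matching ends were not general.

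**Figure D3:**
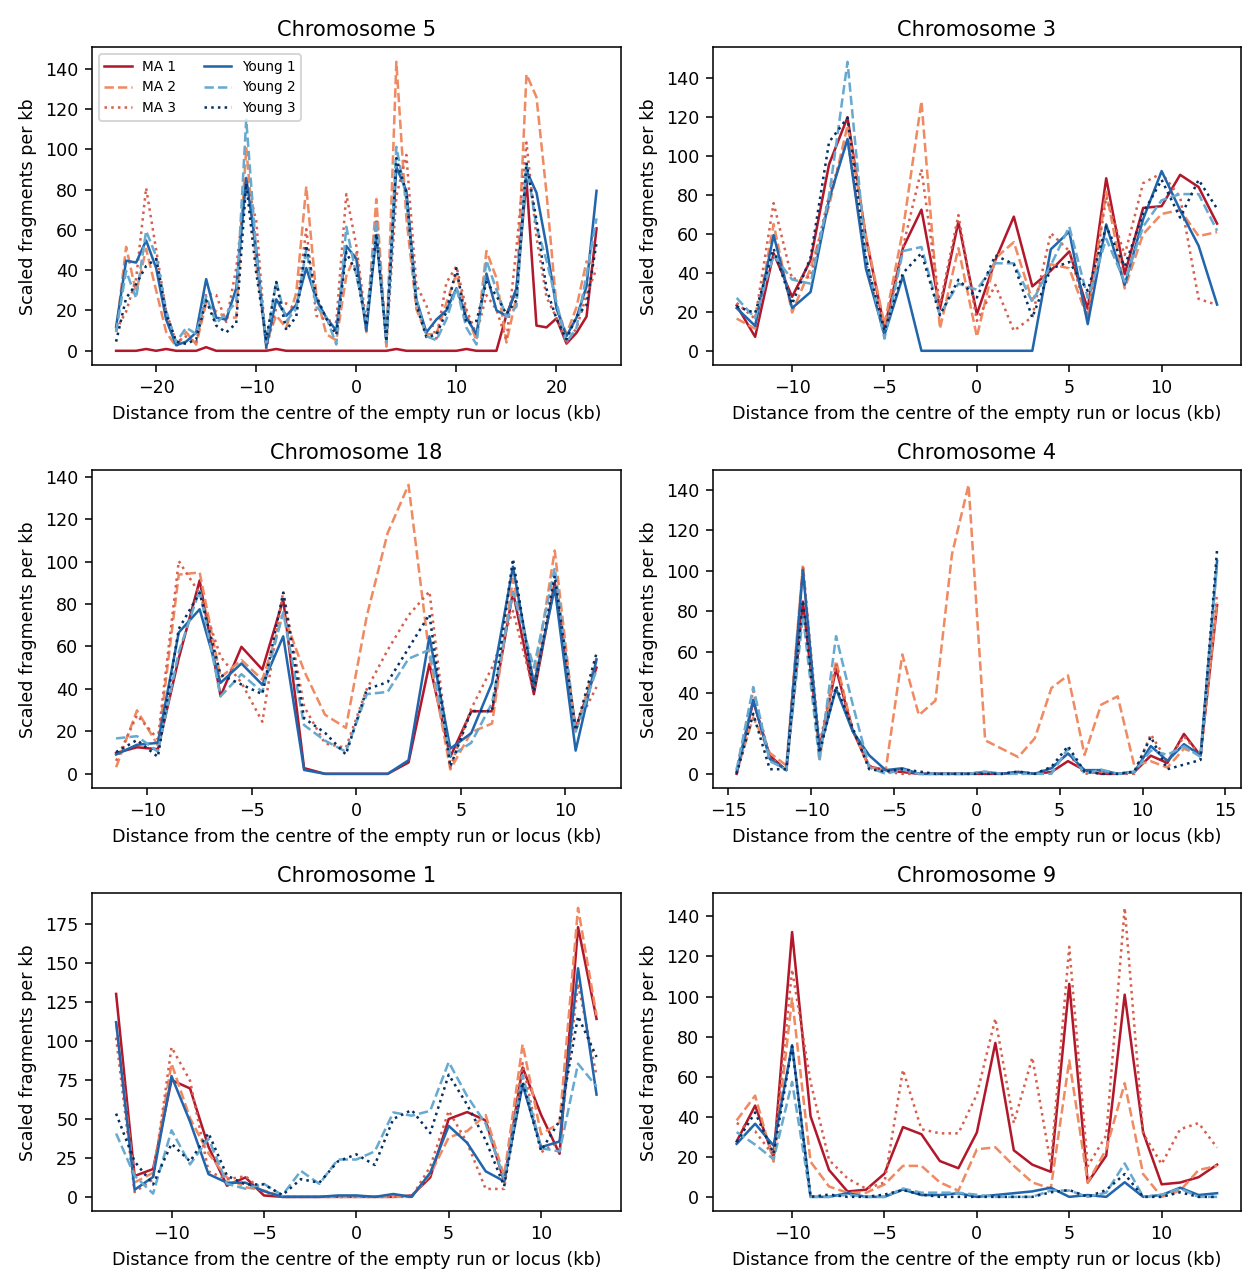
Scaled fragments per kb in the 6 libraries (red for MA, blue for young pigs) against the distance from the centre of 6 empty runs or loci, with 10 windows on each side. On chromosome 3, Young 1 lies at 0 across the centre and rejoins the others on both sides, and on chromosome 5, MA 1 lies near 0 across the centre and on the left, where the second block lies, and rejoins the others on the right. On chromosome 18, 2 libraries are at 0 and 3 lie below the highest one, on chromosome 4 MA 2 and on chromosome 1 Young 2 and Young 3 stand above libraries at or near 0, and on chromosome 9 the means over the centre are higher in the 3 MA libraries than in the 3 young ones.

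Runs in which, in every window, 1 library was empty and all 5 others reached 20 came mostly from the MA pigs, with 26 in MA 1, 17 in MA 2, 14 in MA 3 and 3 in Young 1. For MA 1 and Young 1, a window with 1 fragment counted as empty. No such run was found for Young 2 or Young 3, which were never in opposite states. The run with the highest counts was chr5:98364001-98365000 for MA 1, where it held 0 and the others held 57.5 to 75.3. For MA 2 it was chr5:87199001-87200000 (0 against 45.6 to 82.2) and for MA 3 it was chr3:33718001-33719000 (0 against 28.3 to 115). For Young 1 it was chr12:5705001-5706000, with 0.912 against 56.3 to 68.5.

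The converse pattern, a library at 20 or more with all 5 others empty, was rarer when both were counted in members. It occurred in 16 members, whereas 91 members were at 20 or more in 5 libraries and empty in the other. It was seen in 3 members of MA 1, in 10 of MA 2, which lay in 7 runs, in 3 of MA 3, and in 0 of any young library. Young 2 and Young 3 were in opposite states in 0 members, so neither could have this pattern. Nothing about age is therefore read from these numbers. The highest were chr4:135172001-135173000 and chr4:135173001-135174000, with 108 and 142 in MA 2, and chr16:75369001-75370000 and chr16:75370001-75371000, with 97.0 and 102 in MA 2, and the other 5 libraries held 0 fragments in each of these. Runs in which every window had this pattern were then taken for each library. The highest for MA 1 was chr10:57422001-57423000, with 22.3 in MA 1 and 0 in all the others. The highest for MA 2 was chr5:100482001-100483000, with 35.1 in MA 2 and 0 to 0.893 in the others.

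The stretch without a fragment was measured to the base for each empty library of each run. Among the 2011 combinations of run and library, its median length was 1838 bp, the lower and upper quartiles were 1101 and 3672 bp, and the longest was 115143 bp. In 828 (41.2%) it was under 1500 bp, and in 333 (16.6%) it was 5 kb or more. Such a stretch can run on through DNA that is poorly covered in every library. Over the whole stretch the highest library held a median of 33.4 scaled fragments. The length is therefore not that of DNA covered in the other libraries. The longest deposited interval was 550 bp, so none of the 5 kb stretches could be bridged by 1 interval. Where 2 libraries were empty in the same run, at least 1 end of their stretches matched within 100 bp in 516 of 848 pairs (60.8%), and both ends matched in 125 (14.7%). An end can fall only where a fragment was captured.

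To describe larger blocks, windows with 10 or more fragments in the highest library were joined across up to 10 kb where the same library was empty in each. Both this definition and the lengths used were chosen after seeing the data. Of the members, 1043 (64.4%) had no such neighbour, 426 (26.3%) lay in stretches of 2 to 4 such windows, and 151 (9.32%) lay in stretches of 5 or more. The longest stretches merged into 36 loci with a median span of 11 kb and a longest span of 38 kb. Of these loci, 27 had a stretch in 1 library only, 5 had stretches in libraries of both ages, 2 had them in all 3 young libraries and in no MA library, and 1 had them in all 3 MA libraries and in no young library. A library without a stretch of 5 windows could still be near 0, so these numbers do not count the libraries that were low. In chr12:46590001-46597000, with a stretch in Young 1 only, MA 1, MA 2 and MA 3 also lay at 0.022, 0.030 and 0.015 of the highest library. In chr9:9627001-9633000, with a stretch in Young 3 only, Young 1 and Young 2 lay at 0.026 and 0.017.

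The emptiness of these stretches extended to windows that were poorly covered in every library. Windows whose highest library was under 10 were not used in the joining, and counted once for each library with a stretch they gave 323 combinations of window and empty library, so that some windows enter several times. In these the empty library averaged 0.354 scaled fragments and the other 5 averaged 2.10, against 2.97 in all such windows with a fragment.

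Within the loci the counts of the libraries, set against the library with most fragments, gathered near 0 and away from it. Of 180 values, 67 (37.2%) were at or under 0.05 of the highest library, 20 (11.1%) lay up to 0.3, 39 (21.7%) from 0.3 to 0.7 and 54 (30.0%) above 0.7. In the 5 windows on each side of the same loci, set against the same library, these shares were 2.22%, 23.3%, 26.1% and 48.3%. The loci were chosen for libraries near 0, so many of the low values follow from that choice. Others came from libraries without a stretch, as at chr12:46590001-46597000. A library with a stretch could also lie above 0.05, as MA 3 did at chr6:65308001-65326000 with 0.137.

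**Figure D4:**
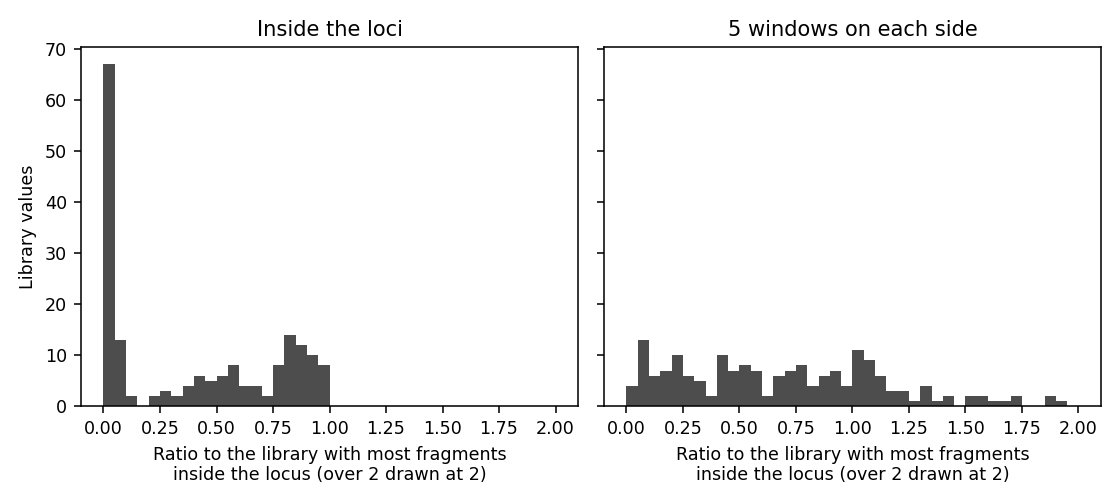
Number of library values by their ratio to the library with most fragments, inside the 36 loci (left) and in the 5 windows on each side (right), in steps of 0.05, with 5 libraries per locus. Inside the loci 67 of 180 values lie at or under 0.05 and the rest spread up to 1, whereas beside the loci few values lie near 0.

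Members that stood alone differed in several measures from those in stretches of 5 or more. Of the lone members, 79.7% were empty in 1 library and 6.23% had every library at a threshold, against 55.6% and 28.5% in the stretches. Libraries that were not empty lay under 0.3 of the highest in 36.5% of values at lone members and in 16.0% in the stretches. The outer 5 Mb held 22.9% of the lone members and 39.1% of those in stretches. No test was made, since the counts defined both classes.

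Among lone members empty in 1 library, the position on the chromosome depended on the library. Of 251 such members in MA 3, 115 (45.8%) lay in the outer 5 Mb, against 7.59% of 224 in MA 1, 10.9% of 110 in MA 2 and 23.0% of 161 in Young 1. For Young 2 and Young 3 the shares were 18.5% of 54 and 16.1% of 31. The members of MA 1 and Young 1 include windows with 1 fragment, and their medians in the empty library were 0.893 and 0.912. The shares are thus not on equal terms. Where MA 3 alone was empty, the median count was 8.21 in Young 1 and 17.5 to 25.0 in the other 4 libraries, and where Young 1 alone was empty it was 7.16 in MA 3 and 12.5 to 17.0 in the others. MA 3 and Young 1 were also the libraries with the lowest ratio of outer to inner counts. The part of that ratio in these members was not tested.

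The windows just outside the runs, members of other runs left out, were lower in the same libraries. For each library, the windows 1 to 5 kb outside the runs that were empty in it were divided by the mean of the libraries that reached 20 in the run, after adding 1. The median log2 ratio was -0.26 in MA 1, -0.27 in MA 2, -0.55 in MA 3, -0.32 in Young 1, -0.33 in Young 2 and -0.40 in Young 3. The mean was -0.36, or 0.782-fold, and all 6 libraries lay below 0 (two-sided exact sign-flip permutation test over 6 libraries, p = 0.03125, the smallest that 6 libraries allow). Leaving out any library kept the mean between -0.39 and -0.30 (exact sign-flip permutation test over 5 libraries, p = 0.0625, the smallest possible). Without the outer 5 Mb it was -0.29. The libraries stood in each other's ratios, and the rule chose which were divided in each run, so the 6 values were not independent. Windows of an empty block that stayed under 20 in every library also counted as flanks. The test therefore cannot tell a difference beside the blocks from the blocks themselves, and no conclusion is drawn from its p.

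The rule fixed the difference inside the runs, and the difference beside them varied from run to run. Of the 2011 combinations of run and empty library, 26.9% had flanks below a ratio of 0.5, and 58.1% had a log2 ratio above -0.5. In the first window on either side of a run, with members of other runs kept in, the empty libraries had medians of 2.74 and 3.07 and the covered libraries 8.55 and 8.83, and at the tenth window the medians were 5.11 and 5.05 against 8.02 and 7.22.

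**Figure D5:**
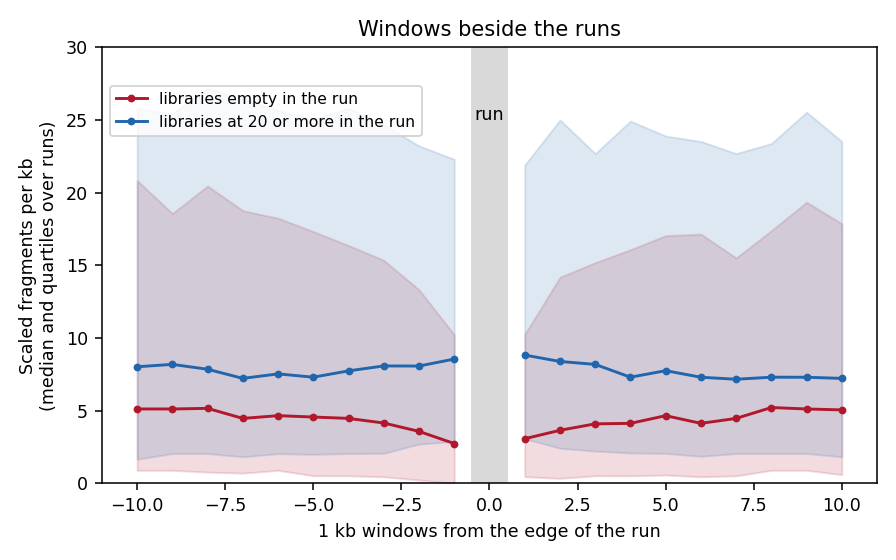
Median scaled fragments per kb over runs in the 10 windows on each side, for the libraries that were empty in the run (red) and those that reached 20 in it (blue), with the lower and upper quartiles shaded. The empty libraries have a median near 3 beside the run and near 5 at the tenth window, and the covered libraries stay between 7 and 9.

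Runs were unevenly spread over the genome. Of 2146 bins of 1 Mb, 704 held a run, 432 of them just 1, while 61 held 5 or more and 13 held 10 or more. The 61 bins made up 2.84% of all bins and held 494 runs (34.2%). The share of the well covered windows that lay in these bins was not counted, so this is no comparison at equal coverage. The median distance from a run to the next was 359 kb, and 65.0% of runs had the next within 1 Mb. The next run lay within 10 kb for 15.1% of runs. Runs this close can be parts of the same empty block, split by poorly covered windows. The runs in a bin are therefore not independent of each other, and whether they gather beyond this was not tested. Without MA 3, 34 bins held 5 or more runs, and without the outer 5 Mb 37 did.

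The 5 bins with most runs differed in which libraries were empty. On chromosome 12, from 55 to 56 Mb, 25 runs held 30 members, of which 18 were empty in Young 1 and 9 in MA 2. On chromosome 9, from 9 to 10 Mb, 23 runs held 41 members, of which 32, 24 and 32 were empty in Young 1, Young 2 and Young 3 against 6, 1 and 1 in MA 1, MA 2 and MA 3. On chromosome 6, from 65 to 66 Mb, 15 of 25 members were empty in MA 1 and 0 in MA 2, and on chromosome 7, from 134 to 135 Mb, 12, 9 and 11 of 17 were empty in MA 1, MA 2 and Young 1. On chromosome 6, from 41 to 42 Mb, 13 of 16 members were empty in MA 3 and 14 to 15 in each young library, and 0 in MA 1 and MA 2. The bin on chromosome 5 from 98 to 99 Mb held 12 runs and 28 members. Of these members, 27 were empty in MA 1, and the bin was picked out after its values were seen. The blocks of MA 1 described above lie in this bin, so its runs are not all separate places.

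The study compared the ages, so the members were also read by age. Of the members, 909 (56.1%) were empty in MA libraries only, 450 (27.8%) in young libraries only, and 261 (16.1%) in libraries of both ages. A complete division by age was rare. All 3 MA libraries reached 20 and all 3 young libraries were empty in 9 members, and the reverse held in 4. In 104 members all 3 young libraries were empty, and in 21 members all 3 MA libraries were. Without MA 3 the first number was 22, and without Young 1 the reverse was found in 16. Leaving out a library also makes the division easier to reach. Young 2 and Young 3 were in opposite states in 0 members, and the pairs of MA pigs in 306 to 477. All 3 young libraries could therefore be empty together more readily than all 3 MA libraries. MA 1 and Young 1 were also empty with 1 fragment in 256 and 261 members. The counts by age are thus not on equal terms, and nothing about age is read from them.

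The test by age was limma's moderated test, fitted to log2(scaled count + 1) in the 951485 windows whose mean reached 10, which 1141 of the members reached and 479 did not. At a Benjamini-Hochberg adjusted p below 0.01, 5 members were higher and 3 were lower in MA pigs, whereas 0.00179% and 0.000736% of all windows were. At 0.05, 31 members were higher and 15 lower, against backgrounds of 0.0122% and 0.00893%. The groups did not overlap in 292 of the 1141 members (25.6%), against 13.4% of all windows, and the unadjusted p was below 0.05 in 437 members, against 7.32%. The rule picks windows that vary between libraries, so larger shares than in all windows were to be found whatever the libraries were called, and nothing is read from them. The calls at 0.01 depended on the processing and on single libraries. None was left with windows of 500 bp or with the replicate number as a block, and 3 higher and 0 lower were left with a pseudocount of 0.5, under which those at chr13:18557001 and chr5:11940001 ended (limma adjusted p = 0.02019 for both). Without MA 3, 16 members were higher and 48 lower, without MA 2 none was called in either direction, without MA 1 1 was higher and 3 lower, without Young 1 6 were higher and 1 lower, and without Young 2 or Young 3 2 were higher and 0 lower in each case.

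The 8 members that passed had adjusted p between 0.0002996 and 0.008862 in limma's fit over all windows. The counts in that fit also made these windows members, and where a group was at 0 the window met the rule and the filter through the other group alone, so its values are given below as a description.

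Of the 5 members that were higher in MA pigs, 2 lay on chromosome 9. In chr9:9525001-9526000, the MA libraries held 132, 74.3 and 179 scaled fragments and the young libraries held 0 in each. In chr9:9647001-9648000, they held 56.3, 58.8 and 104 against 0.912, 1.04 and 1.14. Both windows belong to the cluster of runs at 9 to 10 Mb, where the 3 MA libraries were themselves unequal. In chr9:9626001-9633000, 7 adjacent members held 30.2, 13.9 and 49.1 per kb in MA 1, MA 2 and MA 3 and 0.163 to 1.303 in the young libraries. Its window at 9630001 did not pass the threshold (76.8, 24.8 and 89.0 against 0.912, 0 and 0).

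The other windows higher in MA pigs were single. In chr18:4264001-4265000, the MA libraries held 121, 114 and 121 and the young libraries 0.912, 1.04 and 0. In chr18:3751001-3752000, they held 39.3, 43.3 and 28.6 against 0 in each. In chr13:18557001-18558000, they held 32.2, 43.3 and 54.2 against 0 in each. The stretches without fragments in the 3 young libraries at this last window were 1332, 1339 and 1346 bp long, and their ends lay within 7 bp of each other on the left and 11 bp on the right.

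The 3 members lower in MA pigs were chr5:11940001-11941000, chr5:8393001-8394000 and chr1:92634001-92635000. In the first, the MA libraries held 0 in each and the young libraries held 31.9, 53.2 and 47.8. In the second, they held 2.68, 0 and 2.05 against 74.8, 85.5 and 53.5. In the third, they held 0.893, 2.06 and 2.05 against 45.6, 43.8 and 30.7. With 0 in all MA libraries, chr11:59002001-59003000 (22.8, 51.1 and 36.4 in the young libraries) did not pass, and the ends of its stretches differed by up to 967 bp on the left and 1264 bp on the right between MA libraries. Nor did chr12:55552001-55553000, with 0.893, 0 and 0 against 43.8, 33.4 and 25.0.

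Genes can be named at 6 members, from the listed part of the study's differentially methylated regions (DMRs) that was used here. The study chose these regions on the same libraries, so they are not independent evidence of a direction. HAUS1, a subunit of the augmin complex that helps to build the mitotic spindle, had a DMR in an intron at chr1:99736001-99737000, where the MA libraries held 30.4, 38.2 and 24.6 and the young libraries 0.912, 5.22 and 5.69. The groups did not overlap, and the difference did not pass. The window beside it, chr1:99737001-99738000, was one of the 9 that divided fully by age, with 25.0, 38.2 and 20.5 against 0.912, 0 and 0. ELAC1, which encodes an enzyme of transfer RNA processing, had a promoter DMR at chr1:103752001-103753000. There the MA libraries held 25.9, 27.9 and 23.5 and the young libraries 1.82, 0 and 2.28, and the difference did not pass.

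At the other 4 members the MA libraries disagreed among themselves or were low together. At chr14:61329001-61330000, in an intron of TSNAX, which encodes a partner of the nucleic acid binding protein translin, MA 1 and MA 2 held 0.893 and 4.13 and MA 3 held 28.6, as against 30.1, 34.4 and 29.6 in the young libraries. At chr11:64262001-64263000, in an intron of GPR180, a membrane protein gene, the MA libraries held 0.893, 2.06 and 16.4 and the young libraries 28.3, 43.8 and 34.1. The exon of ENSSSCG00000003279 at chr6:40901001-40902000 had the same pattern as TSNAX, with 0.893, 1.03 and 53.2 in MA pigs against 52.0, 66.8 and 85.4 in young pigs. The exon of ENSSSCG00000000042 at chr5:2986001-2987000 had 8.93, 6.19 and 0 against 26.5, 34.4 and 28.5. None of these 4 differences passed, and without MA 3 those of ENSSSCG00000003279, TSNAX and GPR180 did. MA 3 was the MA library with the highest count at each of those, so leaving it out kept only the low MA values. Nothing is read from that result.

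The intervals counted at members resembled those elsewhere in length. In libraries at 20 or more, their median length was 249 to 265 bp at members and 249 to 266 bp over all windows. Intervals with the same start and end as another of the library made up 0.281% to 0.517% at members and 1.26% to 1.65% over all windows.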

How the data were processed

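The data were 6 MeDIP-seq libraries of pig longissimus dorsi muscle, 3 from MA pigs and 3 from young pigs. The authors filtered the reads, aligned the read pairs to the pig genome assembly Sscrofa9.2 with SOAP2, removed ambiguous reads and merged reads at the same location, and deposited fragment positions as chromosome, start and end. The deposited positions are not counts or a signal, and all counts and other values were computed here. Intervals that share start and end occur in each file and were kept.

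Each fragment was assigned by its midpoint to a 1 kb window, and counts were divided by the library's total (34801285 to 44341673 fragments) and multiplied by the mean total. Members were windows at 20 or more in a library and at 1 or less in another. The counts from these 6 libraries limit precision by sampling of fragments alone, without allowance for PCR copies. Age and replicate were read from the sample labels, in which no batch is named. Windows whose mean reached 10 entered limma 3.58.1 (R 4.3.3) on log2(scaled count + 1), with chromosome X included in the adjustment and a threshold of 0.01. Flanks were compared by an exact sign-flip test. Other steps used Python 3.11.15 with numpy 2.4.6, and matplotlib 3.10.9 for figures. The steps were tested on simulated data.

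The text names, per age direction, the 3 members fully divided by age with the highest mean, and all 8 members called by age, the latter chosen after their values were seen. It also names the 5 longest runs with the same empty libraries, for each library the run with the highest counts in which it alone was empty or alone covered, the members that hold a listed DMR, and the 5 bins with most runs. The windows of chromosomes 4 and 16 covered in MA 2 alone, the bin on chromosome 5, other named runs of 4 or more windows and the named loci were chosen after their values were seen. The members and lists were chosen with earlier results of these data known.

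Positions and genes of DMRs come from the first part of the study's supplementary list, which also holds the authors' own values and p-values, and those were not used. The genome sequence of this build and its gene annotation were not used here. The window size, scaling, thresholds, repeated intervals, counting by overlap, low-count filter, pseudocount, trend, replicate block and single libraries were varied.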

Additional observations from a re-analysis of the deposited data

Results flagged for a closer look

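Chromosome X was left out of the rule for members. The same rule picked out 65 windows there, in 59 runs, which is 1.95 per 1000 windows at 20 or more on that chromosome against 2.20 on chromosomes 1 to 18. They are singled out because they lie in data outside the main measurement. Of these windows, 14, 10 and 19 were empty in MA 1, MA 2 and MA 3, and 23, 16 and 20 in Young 1, Young 2 and Young 3. All 6 pigs were female. A cause was not tested.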

How the results depend on the processing

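The number of members and of runs moved most with the window and the thresholds. With windows of 500 bp there were 4080 members in 3840 runs, 10.5% of them in runs of 2 or more, 29 at 20 in 1 library and empty in all others (16 in the values given above), 15 covered in all MA and no young library, 9 the reverse, 183 bins of 1 Mb with 5 or more runs, and 0 calls by age in either direction. With windows of 5 kb there were 263 members in 221 runs, 10 bins with 5 or more runs, and 36 members with every library at a threshold, and 0 members were covered in 1 library only, in all MA and no young library or the reverse. With an upper threshold of 10 there were 11079 members in 10419 runs, 10.2% in longer runs, 53 members covered in 1 library only, 17 in all MA and no young library and 13 the reverse, 615 with every library at a threshold, 964 bins, and a left-out library that was empty in 9.73% against 15.6%. With 40 there were 366 members in 332 runs, 4, 1 and 0 members of these 3 kinds, 29 with every library at a threshold, and 7 bins. With 1 fragment before scaling as the lower threshold in every library, 2660 members lay in 2422 runs, 108 bins held 5 or more runs, 31 were covered in 1 library only, and 7 in all young and no MA libraries.

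TMM factors gave 95 bins and 1 call lower in MA pigs. Counting fragments in every overlapped window gave 5 members divided by age with MA covered, 32.3% in longer runs and 13 calls higher in MA pigs. Without the outer 5 Mb, 7 members were covered in 1 library only, 108 had every library at a threshold, 37 bins held 5 or more runs, and 3 calls were higher in MA pigs. Calls higher and lower in MA pigs numbered 3 and 0 with a pseudocount of 0.5, 32 and 19 with a mean of at least 3, 36 and 21 without a filter, 13 and 10 without a trend, and 31 and 15 at an adjusted p of 0.05. The cause of these moves was not tested, apart from the fewer or more windows that each setting admits.

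Leaving out each library gave a flank ratio of -0.394 to -0.304, calls of 0 to 16 and 0 to 48, 34 to 59 bins, 19 to 31 members covered in 1 library only, and 9 to 22 and 5 to 16 fully divided by age. The flank ratio stayed below 0 in all 6 libraries in the other settings, at -1.31 with windows of 5 kb to -0.10 with an upper threshold of 10. Same-numbered MA and young libraries did not deviate together (r of -0.22, 0.08 and -0.19) and come from different animals. With the replicate number as a block, 0 members were called in either direction.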
